A study of Bos taurus with 6 samples.

Results

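The genes described here were 10 regulators and markers of the epithelial-mesenchymal transition (EMT), measured in bovine rumen epithelial primary cells (REPC) with and without butyrate. They comprised the transcription factors SNAI1, SNAI2, TWIST1, TWIST2, ZEB1 and ZEB2, the intermediate filament protein VIM, the cadherins CDH1 and CDH2, and the matrix protein FN1. All 10 were found by gene name, on 1 row each of the 32183 rows listed for each culture, and 9 of them were among the 15813 genes tested. The primary cells all came from 1 animal, a male Holstein calf at the age of 2 weeks whose diet was milk replacer alone. The RNA of 3 control cultures was sequenced along with that of 3 cultures kept in medium with 5 mM butyrate for 24 h. The p-values therefore measure the spread between cultures and not between animals.

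In EMT, cells joined in an epithelial sheet loosen their junctions, gain motility and take on features of mesenchymal cells. SNAI, TWIST and ZEB factors bind E-box motifs, and several of them repress CDH1, the E-cadherin that joins epithelial cells. VIM, FN1 and CDH2 are widely used as markers of the mesenchymal state. Butyrate, a short-chain fatty acid made by microbial fermentation in the rumen, inhibits histone deacetylases, which also serve as corepressors of SNAI and ZEB factors. The comparison therefore addressed how the transcripts of these genes differed after the treatment.

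The values were FPKM, the number of sequenced fragments relative to transcript length and to the mapped fragments of the library, so that levels could be compared between genes per length. The FPKM of a culture summed to 678035 to 681912 in controls and 619401 to 629037 after butyrate, and 16051 to 16193 rows were above 0 in controls and 17306 to 17510 after butyrate. The confidence bounds of the FPKM implied 5756609 to 6186809 fragments per culture. This is an approximation that, like all fragment numbers below, takes the bounds as counting error only. For FN1 these numbers moved against the FPKM, so this reading may not hold for every gene. Fold changes are differences in log2(FPKM + 0.1), butyrate minus control, a scale that understates the change of low genes. A gene was called higher or lower at a Benjamini-Hochberg adjusted p under 0.05 in limma over the 15813 genes whose mean FPKM reached a minimum of 0.1. By the study's definition, a differentially expressed gene (DEG) also needed a log2 fold change beyond 2 in either direction, with p under 0.05 after Bonferroni correction. The median log2 fold change of all genes tested was 0.10, with quartiles of -0.41 and 0.77, and it was 0.23 after rescaling to TPM and -0.045 after quantile normalization. Of the calls, 55.7% were higher, against 63.6% after rescaling to TPM and 47.8% after quantile normalization.

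The cultures expressed epithelial genes together with some of the markers of fibroblasts and smooth muscle. Of 10 epithelial markers, 9 were at an FPKM of at least 1 in all 6 cultures, EPCAM being the exception. The summed FPKM of the 10 was 2428 to 2537 in controls and 5057 to 5139 after butyrate. KRT8 (mean 1380 in controls and 1971 after butyrate) and KRT19 (492 and 1953) made up most of this sum. Against the sum, KRT5 was called lower (401 and 356). CDH1 and DSP did not pass the test (log2 fold change -0.03 each). Of 8 fibroblast markers, 5 were at an FPKM of at least 1 in all cultures. LUM, PDGFRA and PDGFRB were not, with control means of 0.149, 0.306 and 0.0203 FPKM. The sum of the 8 was 1924 to 1982 in controls and 2789 to 3038 after butyrate. Of 5 smooth muscle markers, 3 were, and the sum of the 5 was 6468 to 6796 in controls and 2849 to 3456 after butyrate. MYH11 and DES were low, with control means of 0.662 and 0.367 FPKM. MYH11 fell (log2 fold change -2.02), whereas DES rose (2.07) against the sum. The summed endothelial markers lay at 1.97 to 2.16 in controls and 6.70 to 8.43 after butyrate. The leukocyte markers lay at 6.67 to 7.89 and 12.5 to 14.3. CDH5 and PTPRC were listed at 0 in every culture, but other members of both lists were detected. Mean FPKM rose from 1.54 to 3.95 for PECAM1, 0.456 to 3.31 for VWF, 0.595 to 1.21 for CD68 and 1.07 to 5.01 for AIF1. CD14, at 5.57 and 6.8, was not called. The remaining members of both lists were not tested, with group means of at most 0.195. The 4 mesothelial markers, led by MSLN, summed to 228 to 238 in controls and 550 to 585 after butyrate. Of these, UPK3B rose from a mean of 2.49 to 9.65 FPKM. WT1 and LRRN4 were near 0, with means of 0.112 and 0.0759 FPKM after butyrate. In bulk RNA, fewer cells of a type and less RNA per cell cannot be told apart. The part of these marker differences in the values of the EMT genes was not tested.

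After butyrate, SNAI2, SNAI1, TWIST1, VIM and FN1 rose, TWIST2 fell, and ZEB1, CDH1 and CDH2 did not pass the test. ZEB2 was near 0 in every culture and was not tested. The 5 of 9 genes called higher compare with 32.5% of all genes tested, and the 1 called lower with 25.9%. Each of the 5 was higher in every butyrate culture than in every control culture, a pattern of 36.1% of all genes, and TWIST2 was lower in every butyrate culture, a pattern of 28.9%. The median log2 fold change of the 9 genes was 0.56, beside 0.10 over all genes. No EMT gene was a DEG of the study's definition (limma), beside 3.97% of all genes (627, of which 389 rose and 238 fell), while 6 of the 9 had an unadjusted p under 0.05, beside 62.7% of all genes. SNAI2, VIM and FN1 passed the Bonferroni correction, as did 12.8% of all genes, but lay below the fold limit, and TWIST1 lay beyond the fold limit with a Bonferroni-corrected p of 1.

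**Figure D1:**
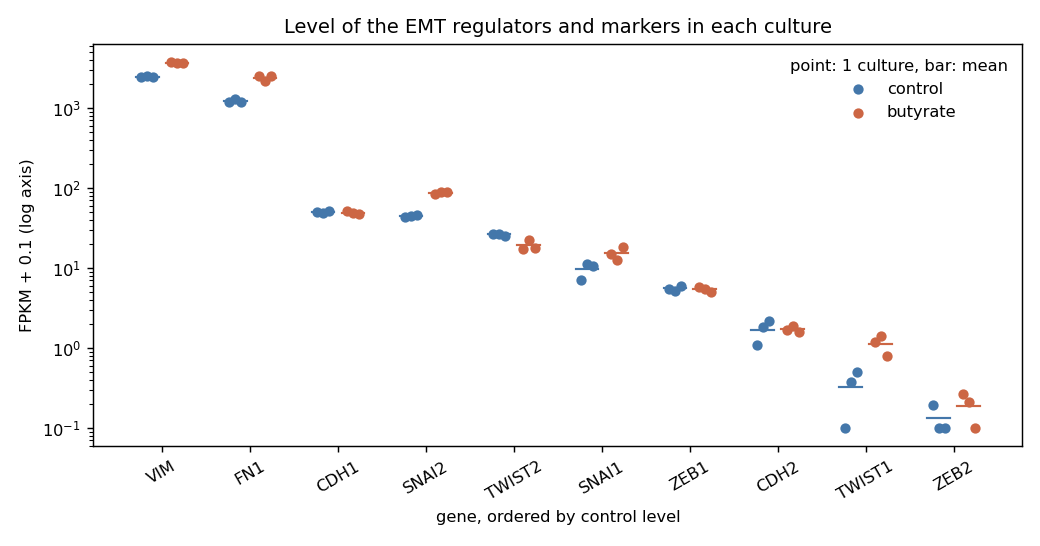
FPKM of the 10 EMT genes in each of the 6 cultures, on a log axis, with 1 point per culture and a bar at each group mean. The butyrate points of SNAI2, VIM and FN1 stand clear of the controls, those of TWIST2 lie below them, and those of ZEB1, CDH1 and CDH2 are interleaved with them.

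SNAI2 (Slug), a zinc finger repressor also expressed in basal epithelial cells, had the highest level of the 6 transcription factors in both groups. The gene (gene16684) lies at chr14:21577308-21580910 on the UMD3.1 build. In order of replicate number, here and for the genes below, the controls had an FPKM of 42.6, 44.0 and 45.8, and the butyrate cultures had 84.0, 88.2 and 88.6. The lowest butyrate culture was far above the highest control, and the confidence bounds of the cultures did not overlap either, with the highest control bound at 48.9 and the lowest butyrate bound at 79.6. The mean rose from 44.1 ± 1.60 to 86.9 ± 2.57 (SD, n = 3 each), a log2 fold change of 0.98 (SE 0.05, 95% confidence interval 0.86 to 1.10, adjusted p = 1.2e-06 in limma). The bounds implied 788 to 846 fragments on SNAI2 per control culture and 1488 to 1600 per butyrate culture.

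SNAI1 (Snail), the paralog of SNAI2 and a direct repressor of CDH1, was expressed at a lower level and varied more between cultures. It is gene16360 at chr13:78766068-78772194, and its FPKM was 7.03, 11.1 and 10.6 in the controls and 14.6, 12.4 and 18.1 after butyrate. The groups did not overlap, but the highest control and the lowest butyrate culture were close, and their confidence bounds overlapped. SNAI1 rose from 9.59 ± 2.22 to 15 ± 2.91 FPKM (SD, n = 3 each), a log2 fold change of 0.65 (SE 0.20, 95% confidence interval 0.21 to 1.10, adjusted p = 0.0193 in limma). This call was lost without the variance trend (adjusted p = 0.0599 in limma). It was also lost without control replicate 1 (0.45, adjusted p = 0.0599 in limma), butyrate replicate 1 (0.67, 0.0724) or butyrate replicate 3 (0.51, 0.0955). The rise of SNAI1 rested on 53 to 78 implied fragments per control culture and 117 to 146 per butyrate culture. The ratio of SNAI1 to SNAI2 was 0.213 in controls and 0.171 after butyrate (geometric means of 3 cultures), and its groups overlapped.

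TWIST1, a basic helix-loop-helix factor of mesoderm and neural crest, was barely detected. It is gene4515 at chr4:27853326-27855320, and its FPKM was 0, 0.276 and 0.403 in the controls and 1.09, 1.29 and 0.687 after butyrate. All 3 butyrate values were above all controls, but the implied fragments were 0, 2 and 3 in the controls and 8, 10 and 5 after butyrate. TWIST1 rose from 0.227 ± 0.206 to 1.02 ± 0.308 FPKM (SD, n = 3 each), a log2 fold change of 2.04 (SE 0.59, 95% confidence interval 0.68 to 3.39, adjusted p = 0.0168 in limma). Summed over the cultures of each group, 23 against 5 fragments gave a ratio of 4.6 with an exact 95% interval of 1.73 to 15.6. This interval takes the implied fragments as counts and leaves out the spread between cultures. The size of the TWIST1 fold change depended on the pseudocount, at 3.24 with 0.01 (adjusted p = 0.0658 in limma) and 0.73 with 1 (adjusted p = 0.00519). Its call was also lost under quantile normalization (1.39, adjusted p = 0.0771 in limma) and without butyrate replicate 1 (1.97, 0.0728) or 2 (1.86, 0.0851). Without control replicate 1, the culture at 0, the log2 fold change was 1.33, below the fold limit of a DEG. TWIST1 was not tested at a minimum mean FPKM of 1.

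TWIST2 (Dermo-1), the paralog of TWIST1 and a factor of dermal and other connective tissue cells, was the EMT gene that fell. The gene (gene4260) spans chr3:118630617-118690527, and its FPKM was 26.7, 26.5 and 25 in the controls and 17.3, 21.9 and 17.8 after butyrate. Every butyrate culture was below every control, with butyrate replicate 2 nearest to them and with overlapping confidence bounds. The mean fell from 26.1 ± 0.923 to 19.0 ± 2.54 (SD, n = 3 each), a log2 fold change of -0.46 (SE 0.10, 95% confidence interval -0.68 to -0.23, adjusted p = 0.00364 in limma). TWIST2 remained the more abundant TWIST gene in all 6 cultures, although the ratio of TWIST2 to TWIST1, with 0.1 added to both, was 98.1 in controls and 17.4 after butyrate. The end of TWIST2 overlaps the entry LOC101905509 (chr3:118690064-118697724), whose mean FPKM was 0.135 in controls and 1.12 after butyrate. Whether the counting used strand is not given in the sources used here, so reads in the shared stretch cannot be assigned with certainty.

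ZEB1, a zinc finger and homeodomain repressor of CDH1 and of other epithelial genes, did not pass the test. It is gene15556 at chr13:34061282-34261303, with 5.39, 5.04 and 5.90 FPKM in the controls and 5.70, 5.34 and 4.90 after butyrate. The values of the groups were interleaved, with means of 5.44 ± 0.434 and 5.31 ± 0.398 (SD, n = 3 each). The log2 fold change was -0.03 (SE 0.12, adjusted p = 0.834 in limma), and its 95% confidence interval of -0.31 to 0.25 leaves room for changes of moderate size in either direction. The sign of this value turned with the scaling, as did that of CDH1 and of CDH2. The related ZEB2 (gene1668, chr2:52275132-52365184) was listed at 0.0955, 0 and 0 in the controls and at 0.162, 0.109 and 0 after butyrate, at most 2 implied fragments in a culture. At this depth no difference in ZEB2 could be detected.

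**Figure D2:**
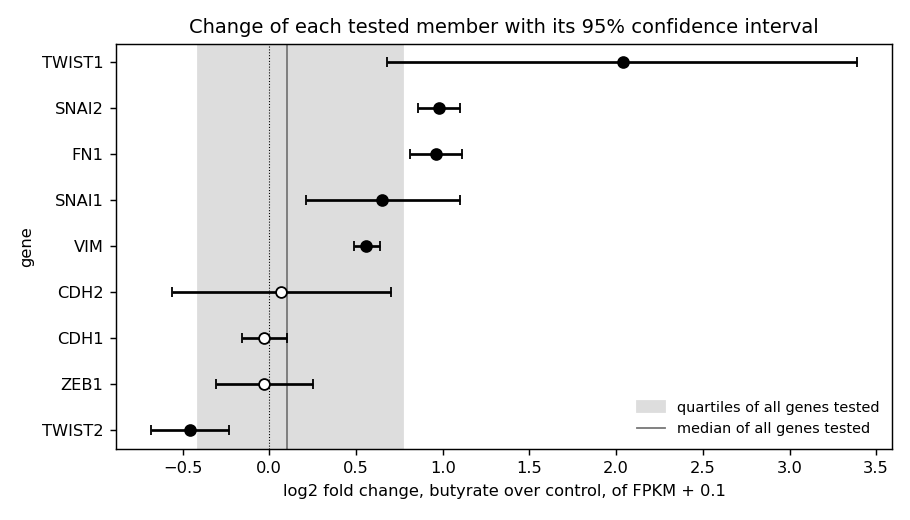
Log2 fold change (butyrate minus control, log2 of FPKM + 0.1) of the 9 EMT genes tested, with 95% confidence intervals from limma. The solid grey line is the median of all genes tested, 0.10, the grey band spans their quartiles, and the dotted line marks no change. SNAI2 at 0.98, FN1 at 0.96 and VIM at 0.56 have short intervals, whereas that of TWIST1 runs from 0.68 to 3.39.

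VIM (vimentin), the intermediate filament protein of mesenchymal cells, was the most abundant EMT gene and held rank 19 of all genes by mean FPKM in controls and rank 7 after butyrate. The gene (gene15541) lies at chr13:31945012-31952941, and its FPKM was 2450, 2530 and 2411 in the controls and 3712, 3585 and 3625 after butyrate. The cultures of each group were close together and the groups far apart, and the highest control bound (2563) was below the lowest butyrate bound (3549). VIM rose from 2464 ± 61.0 to 3641 ± 64.9 FPKM (SD, n = 3 each), a log2 fold change of 0.56 (SE 0.03, 95% confidence interval 0.49 to 0.64, adjusted p = 1.4e-06 in limma). This equals 1.48-fold, the smallest fold among the 5 genes that rose, with the shortest interval of the 5.

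FN1 (fibronectin), a secreted glycoprotein of the extracellular matrix that integrins bind, held rank 55 in controls and rank 16 after butyrate. It is gene1972 at chr2:103881402-103950599, with 1196, 1286 and 1169 FPKM in the controls and 2510, 2136 and 2474 after butyrate. Each butyrate culture was above each control, and butyrate replicate 2 was the lowest of its group. The mean rose from 1217 ± 61.1 to 2374 ± 206 (SD, n = 3 each), a log2 fold change of 0.96 (SE 0.07, 95% confidence interval 0.81 to 1.11, adjusted p = 4.0e-06 in limma). The fragments that the bounds implied for FN1 went the other way, 9845 to 10324 in controls and 7286 to 8028 after butyrate. The cause was not tested, and the implied fragments of FN1 are not used further. The microRNA entry MIR2285L lies within FN1 and had a mean of 0 FPKM in controls and 8.78 after butyrate. It is short (chr2:103938884-103938965), and whether its value came from reads of FN1 was not tested. The confidence interval of the FN1 fold change lay above that of VIM, and the ratio of FN1 to VIM was 0.494 in controls and 0.650 after butyrate, without overlap between groups. VIM and FN1 together took 0.527 to 0.560% of the summed FPKM of a control culture and 0.916 to 1.00% of that of a butyrate culture, and thus nearly all of the share of the 10 genes, 0.547 to 0.580% and 0.945 to 1.03%.

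CDH1 (E-cadherin), the adhesion molecule of epithelial adherens junctions, did not pass the test. It is gene20935 at chr18:36221701-36243315, with 49.7, 48.4 and 51.4 FPKM in the controls and 51.3, 48.1 and 47.3 after butyrate. The groups overlapped, with means of 49.8 ± 1.49 and 48.9 ± 2.11 (SD, n = 3 each). The log2 fold change of -0.03 (SE 0.06, adjusted p = 0.707 in limma) had a 95% confidence interval of -0.16 to 0.10, which is 0.897-fold to 1.07-fold. CDH2 (N-cadherin), the adhesion molecule of neural and many mesenchymal cells, was low, and its values overlapped as well. It is gene27103 at chr24:28992666-29241119, with 0.977, 1.74 and 2.04 FPKM in the controls and 1.59, 1.76 and 1.46 after butyrate. The log2 fold change of CDH2 was 0.07 (SE 0.28, adjusted p = 0.844 in limma), with a wide interval of -0.56 to 0.70. A cadherin switch is the exchange of CDH1 for CDH2 that often goes with EMT. The ratio of CDH2 to CDH1 was 0.0304 in controls and 0.0327 after butyrate, and the groups overlapped.

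The order of the levels differed between groups at few places. In controls it ran from VIM through FN1, CDH1, SNAI2, TWIST2, SNAI1, ZEB1, CDH2 and TWIST1 to ZEB2, and of neighbours in this order TWIST1 and ZEB2 alone overlapped. After butyrate SNAI2 stood above CDH1, and TWIST2 and SNAI1 overlapped. On the log2 scale the ratio of SNAI2 to CDH1 was -0.22, -0.14 and -0.17 in the controls and 0.71, 0.87 and 0.91 after butyrate. SNAI2 was thus below CDH1 in every control and above it in every butyrate culture. The log2 ratio of TWIST2 to SNAI1 was 1.92, 1.26 and 1.23 in the controls and 0.25, 0.83 and -0.02 after butyrate. The ratios of SNAI2 to CDH1, TWIST2 to SNAI1 and FN1 to VIM were chosen after their values were seen. All ratios are descriptions without a test.

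**Figure D3:**
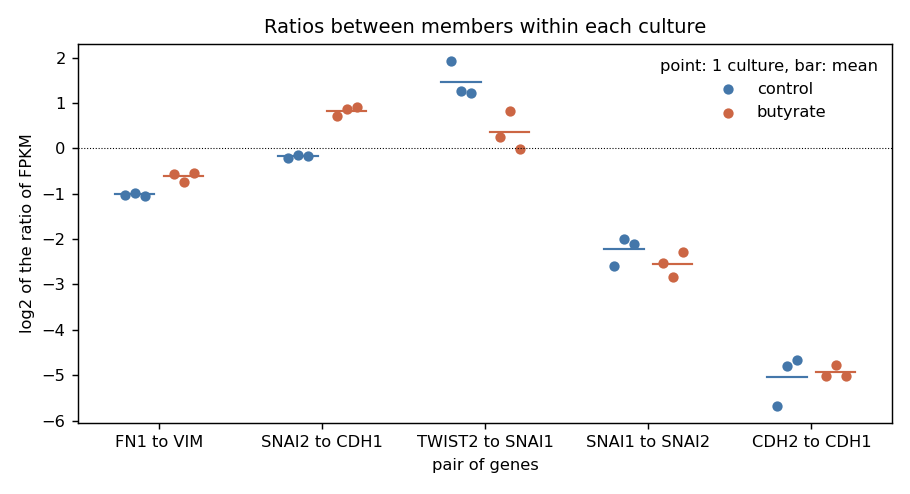
Log2 ratio of the FPKM of pairs of EMT genes in each culture, with 1 point per culture. SNAI2 to CDH1 changed sign between controls and butyrate cultures, whereas CDH2 to CDH1 and SNAI1 to SNAI2 overlapped.

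Around these genes, 11 lists of related genes held 165 names, of which 160 were found and 145 tested. Of these, 85 were higher after butyrate, 25 were lower and 9 were DEGs, beside 32.5%, 25.9% and 3.97% of all genes. These shares, and the median log2 fold change of 0.10 over all genes, are the background for each list below. JUP, CDH11, SPARC, POSTN and LOX stand on 2 lists each and were counted once in the totals. Among EMT transcription factors outside the 10 genes, 9 were tested, of which 5 rose, 2 fell and 2 did not pass the test. The median log2 fold change of the 9 was 0.39. The homeobox factor PRRX1, a mesenchymal regulator, fell from 54.1, 54.8 and 55.5 FPKM in the controls to 11.6, 4.44 and 7.33 after butyrate (log2 fold change -2.90, SE 0.28, adjusted p = 3.4e-05 in limma). Its Bonferroni-corrected p was 0.0741 in limma, so it was no DEG. PRRX2 was the most abundant of this list, at 241 ± 10.7 and 221 ± 36.6 FPKM (SD, n = 3 each), and did not pass the test (-0.13, adjusted p = 0.320 in limma), with a sign that turned under quantile normalization and without butyrate replicate 2. SOX4, a factor that acts with TGF-beta signals, rose from 29.7 ± 2.55 to 85.7 ± 9.76 (SD, n = 3 each). SNAI3, the remaining SNAI gene, was listed at 0 in all 6 cultures and is named here after its values were seen.

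Factors known to maintain the epithelial state mostly rose, with 8 of 11 tested higher, 1 lower and a median log2 fold change of 1.10. The number higher was 6 at a minimum mean FPKM of 1 and 6 under quantile normalization. ELF3, an epithelium-specific ETS factor, was a DEG, at 1.25, 0.490 and 1.54 FPKM in the controls and 40.9, 44.6 and 32.7 after butyrate (log2 fold change 5.16, SE 0.34, adjusted p = 3.4e-06 in limma). KLF5 rose from 32.0 ± 1.73 to 47.1 ± 1.24 (SD, n = 3 each). The ETS factor EHF, a relative of ELF3, fell from 6.82 ± 0.123 to 4.23 ± 0.128 (SD, n = 3 each). In this list 1 tested gene, OVOL2, had a group mean under the filter of 0.1, at 0.0615 FPKM in controls and 0.270 after butyrate, and it was not called. It is named after its values were seen.

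Of the epithelial markers, 21 of 28 tested rose, 2 fell and 5 did not pass the test, with 4 DEGs and a median log2 fold change of 0.71. The tight junction protein CLDN4 was a DEG, from 5.90, 3.92 and 4.01 FPKM in the controls to 46.9, 53.2 and 36.0 after butyrate (log2 fold change 3.28). KRT8, a keratin of simple epithelia, rose from 1380 ± 61.4 to 1971 ± 35.1 (SD, n = 3 each). KRT17, the most abundant marker, was at 3859 ± 87.0 and 3990 ± 229 (SD, n = 3 each) and did not pass the test (0.05, adjusted p = 0.392 in limma), a call that was gained after rescaling to TPM and without butyrate replicate 2. MARVELD2, a protein of tricellular junctions, fell from 13 ± 1.5 to 7.63 ± 0.796 (SD, n = 3 each). The number of epithelial markers called lower was 1 in place of 2 under 9 of 14 alternatives, among them the omission of any culture other than control replicate 3.

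Mesenchymal markers were split, with 13 of 20 tested higher, 6 lower and a median log2 fold change of 0.31. THY1, a surface glycoprotein of fibroblasts and other cells, was a DEG, at 19.1, 21.3 and 24.2 FPKM in the controls and 86.9, 93.3 and 82.7 after butyrate (log2 fold change 2.03). ACTA2, the actin of smooth muscle and myofibroblasts, went the other way, from 2637, 2802 and 2817 to 1030, 838 and 1150 (log2 fold change -1.46, SE 0.10, adjusted p = 4.0e-06 in limma). TAGLN, an actin-binding protein of the same cells, fell from 3074 ± 83.2 to 1978 ± 141 (SD, n = 3 each). In controls TAGLN and ACTA2 were above VIM, and after butyrate they were below it.

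Among fibronectin receptors and proteins of matrix assembly, 7 of 13 tested rose and 3 fell, with a median log2 fold change of 0.29. The matrix protein SPARC, the most abundant, rose from 2326 ± 19.4 to 2900 ± 51.2 FPKM (SD, n = 3 each). TGM2, a transglutaminase that crosslinks fibronectin, was a DEG and rose from 12.5 ± 0.950 to 83.2 ± 2.89 (SD, n = 3 each; log2 fold change 2.73). LOX, which crosslinks collagen, fell from 631 ± 13.3 to 256 ± 15.9 (SD, n = 3 each; log2 fold change -1.30). ITGB1, a subunit of the fibronectin receptor, was at 693 ± 23.5 and 629 ± 41.1 (SD, n = 3 each), with a log2 fold change of -0.14 (adjusted p = 0.0449 in limma) whose call was lost under 10 of 14 alternatives and whose sign turned under quantile normalization. In this list 1 tested gene had a group mean under the filter.

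The partners of CDH1 in the adherens junction rose in part, with 5 of 8 tested catenins and junction proteins higher, 1 lower and a median log2 fold change of 0.56. CTNNB1 (beta-catenin) rose from 185 ± 8.88 to 264 ± 6.50 FPKM (SD, n = 3 each), and JUP (plakoglobin) from 121 ± 6.59 to 189 ± 7.26. ARVCF, a catenin of the p120 family, had the largest rise of the list, from 25.4 ± 1.86 to 65.5 ± 2.81 (SD, n = 3 each), and VCL (vinculin) fell from 95.1 ± 2.70 to 63.1 ± 3.96. Under quantile normalization and with the replicate block, 2 genes of this list were lower. Of 10 other cadherins, 6 were tested and all 6 were called higher, but CDH4 and CDH15 had passed the filter through the butyrate cultures alone. CDH13 rose from 51.7 ± 2.31 to 79.0 ± 1.64 (SD, n = 3 each), and the intestinal cadherin CDH17, a DEG, from 4.42, 3.35 and 3.66 to 25.9, 26.4 and 30.3 (log2 fold change 2.83). CDH15 was listed at 0 in all controls and at 1.5, 1.32 and 0.824 after butyrate. CDH13 was above CDH1 in each of the 6 cultures, by a small margin in the controls.

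**Figure D4:**
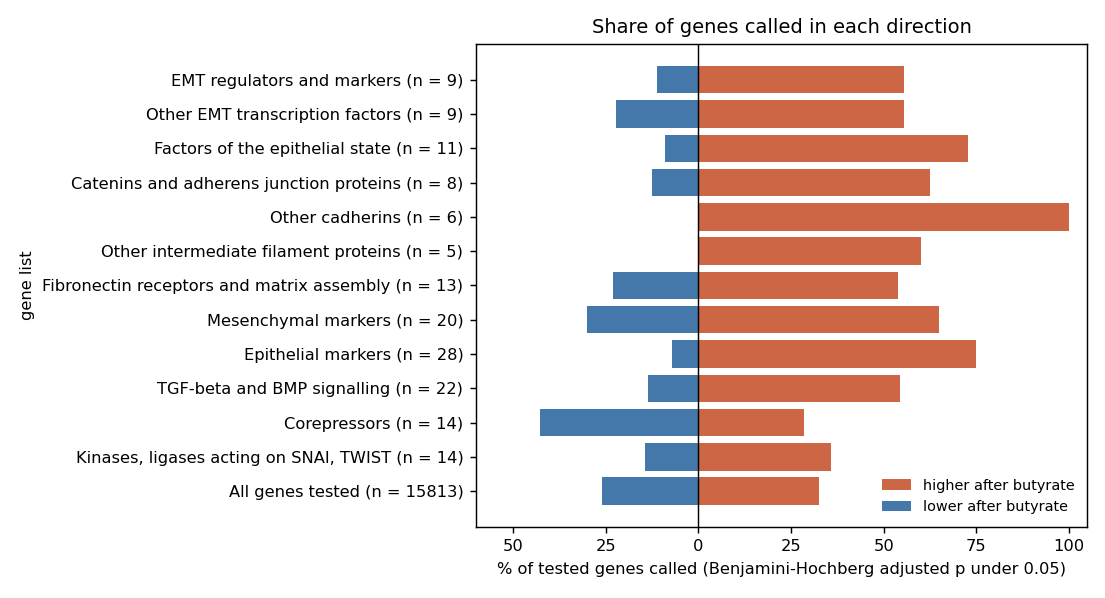
Share of tested genes called higher (bars to the right) or lower (bars to the left) after butyrate, in percent. Bars are given for the EMT genes, the 11 related lists and all genes tested. Of the factors of the epithelial state, 8 of 11 were higher and 1 lower, and mesenchymal markers were called in both directions. Of all genes tested, 32.5% were higher and 25.9% lower.

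TGF-beta and BMP signalling, which induces SNAI, TWIST and ZEB genes in many epithelia, had 12 of 22 genes higher, 3 lower and 7 not called, with a median log2 fold change of 0.33. ID3, a target of BMP signals that blocks basic helix-loop-helix factors, fell from 438 ± 13.1 to 235 ± 10 FPKM (SD, n = 3 each; log2 fold change -0.90). Its relative ID1 was at 728 ± 11.8 and 673 ± 35.9 (SD, n = 3 each) and did not pass the test (-0.11, adjusted p = 0.0530 in limma), and its sign turned after rescaling to TPM (0.01) and under quantile normalization (0.17, called higher). ID1 was called lower at a minimum mean FPKM of 1 and without butyrate replicate 2. SMAD1, a transducer of BMP signals, rose from 11 ± 0.409 to 23.5 ± 3.91 (SD, n = 3 each).

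**Figure D5:**
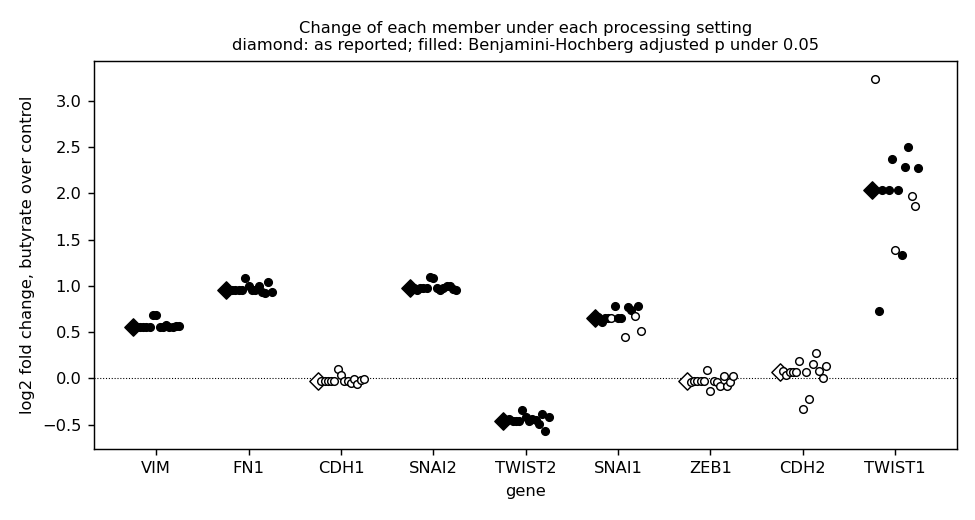
Log2 fold change of the 9 EMT genes tested under each alternative processing, with 1 point per setting and the reported value marked. TWIST2 ranged from -0.57 to -0.34, whereas TWIST1 ranged from 0.73 to 3.24 with the pseudocount.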

How the data were processed

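RNA of 6 REPC cultures (RIN 9) was sequenced as paired 150 bp reads. Per the labels and methods, reads were trimmed with Trim Galore 0.4.1 and aligned with STAR, uniquely mapped reads were used, and the authors deposited gene-level FPKM from Cufflinks with confidence bounds for each culture. The submitters' processing notes name UMD3.1. The paper names Ensembl as the source of its gene annotation files, but which annotation version underlies the deposited FPKM is not stated. Starts in the files count from 0 and are printed counting from 1, and chromosomes were taken from the study's gene tables. Rows were joined by position. FPKM are not counts, so log2(FPKM + 0.1) was tested with limma 3.58.1 (R 4.3.3, with trend), keeping genes whose mean FPKM reached 0.1 over the 6 cultures, without TNC and FOSL2, whose estimates failed. The script was tested on simulated data. Implied fragments are the square of FPKM over its standard error, with the upper bound taken as 2 standard errors above the FPKM. Named genes are the 10 EMT genes and, in each related list, the 2 most abundant and the largest called rise and fall. The genes and lists were chosen with earlier results of these data known. Alternatives were 2 other pseudocounts, no filter or a minimum FPKM of 1, no trend, rescaling to TPM, quantile normalization, a replicate block and each culture left out. A further marker list is not reported here.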

Additional observations from a re-analysis of the deposited data

How the results depend on the processing

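The numbers of genes and of EMT genes called were compared with those under 8 other settings and with each culture left out. DEGs numbered 627 with the settings used here, 375 without a filter, 354 without the variance trend, 409 with the replicate block and 233 to 354 with 1 culture left out. The 5 EMT genes called higher were 3 to 5 with 1 culture left out, the 3 being without butyrate replicate 1, when SNAI1 and TWIST1 lost their calls. The signs of the 3 genes that did not pass the test turned: ZEB1 was at 0.088 after rescaling to TPM and -0.086 to 0.026 with 1 culture left out, CDH1 at 0.10 after rescaling to TPM and 0.042 under quantile normalization, and CDH2 at -0.33 under quantile normalization and -0.22 to 0.27 with 1 culture left out. The cause was not tested. Of the fold changes of EMT genes under alternatives, 110 kept direction and call, 8 lost the call and 7 changed sign. Of the counts in related lists, 25 moved by more than 1.5 times and 283 did not. Cultures with the same replicate number did not deviate together (correlations of 0.0228, -0.00431 and 0.00177 across genes), so the numbers were not taken as pairs. With the replicate block, 5 EMT genes were higher and 1 lower, and 4956 genes were higher and 4015 lower. Depth limits what can be said of TWIST1 and ZEB2.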

Other observations

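The corepressors through which SNAI, TWIST and ZEB factors act showed no common direction, with 4 of 14 higher after butyrate and 6 lower, beside 32.5% and 25.9% of all genes, and a median log2 fold change of -0.17, beside 0.10 over all genes. HDAC1, a histone deacetylase and the most abundant of them, was at 85.6, 76.3 and 78.6 FPKM in the controls and 73.0, 81.6 and 80.5 after butyrate. Its log2 fold change of -0.03 did not pass the test (adjusted p = 0.691 in limma), and the sign turned after rescaling to TPM, under quantile normalization and without control replicate 1 or butyrate replicate 1. KDM1A, a histone demethylase that binds SNAI1, rose from 46.6 ± 1.57 to 72.8 ± 1.90 (SD, n = 3 each; log2 fold change 0.64). PRMT5, an arginine methyltransferase, fell from 50.7, 54.4 and 62.9 to 19.2, 19.4 and 18.8 (log2 fold change -1.54). With any 1 of the 6 cultures left out, 1 or 2 of the corepressors were called higher and 6 lower.

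The list of kinases and ubiquitin ligases that act on SNAI and TWIST proteins also held the deubiquitinase USP1. Of its genes, 5 of 14 rose and 2, including USP1, fell, with a median log2 fold change of -0.06. The share that rose was close to the 32.5% of all genes, and it was 3 of 14 without control replicate 2, butyrate replicate 1 or butyrate replicate 2. GSK3B, a kinase that marks SNAI1 for degradation, was at 49.3 ± 4.84 and 58.8 ± 4.14 FPKM (SD, n = 3 each), with a log2 fold change of 0.26 (adjusted p = 0.0286 in limma) whose call was lost under 7 of 14 alternatives. The name GSK3B stands on 2 rows, of which the more abundant is given. FBXL5, a subunit of a ubiquitin ligase, rose from 14.5 ± 0.325 to 18.2 ± 1.64, and the kinase LATS2 from 4.91 ± 0.447 to 9.98 ± 1.77 (SD, n = 3 each). USP1 fell from 13 ± 0.833 to 4.11 ± 0.291 (SD, n = 3 each; log2 fold change -1.63).

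Among other intermediate filament proteins related to VIM, 3 of 5 tested were higher, and 1 tested gene had a group mean under the filter of 0.1. The neuronal protein PRPH was a DEG, at 0.509, 0 and 0.107 FPKM in the controls and 16, 17.4 and 15.6 after butyrate, and NES (nestin) rose from 1.39 ± 0.301 to 4.63 ± 0.816 (SD, n = 3 each; log2 fold change 1.68).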
